A study of Mus musculus with 22 samples.

Results

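In mouse ES cells, 3737 of the 173699 DNA G-quadruplex (G4) peaks of TERRA knockdown (KD) replicate 1 overlapped a G4 peak of TERRA KD replicate 2 and no G4 peak of either scramble KD replicate, that is 2.15% of the list. These sites were selected on the 4 G4 peak lists, so the G4 values that made them sites are described and not tested. G4 was measured by ChIP-seq with the BG4 antibody in 16.7 ES cells, a female line from a cross of CAST/Ei with 129/Sv/Jae, and all cells were collected 12 h after transfection of LNA gapmers. The control groups received scramble gapmers and the TERRA KD groups gapmers antisense to TERRA, with 2 replicates per condition for G4, ATRX ChIP-seq, H3K9me3 ChIP-seq and ATAC-seq. The cells are a single line, were separated from feeder cells 1 passage before transfection, and went through the same delivery in both conditions.

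A G-quadruplex is a 4-stranded fold that guanine-rich DNA can take when runs of guanine stack on each other, and BG4 is a recombinant antibody that binds this fold. TERRA is the RNA transcribed from telomeres, whose UUAGGG repeats can themselves fold into G-quadruplexes. ATRX is a chromatin remodeller that deposits histone H3.3 at telomeres and silent repeats, where H3K9me3 is the usual histone mark, and it is known to bind G-rich repeats. ATAC-seq reads out where chromatin is open.

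Of the 3733 sites on chromosomes 1 to 19, X and Y, 1726 (46.2%) held a G4 motif, defined as 4 runs of at least 3 G separated by loops of 1 to 7 bases on either strand, within 300 bp around the peak summit. The following 120-base stretches come from 4 of the highest-ranked sites with such a motif outside annotated exons, read from the RefSeq sequence of GRCm38/mm10. They are shown because the guanine runs are what the antibody target needs, and each is written 5′ to 3′ on the strand with the G runs, with the match in capitals.
Fbxw10, chr11:62854280-62854399, minus strand: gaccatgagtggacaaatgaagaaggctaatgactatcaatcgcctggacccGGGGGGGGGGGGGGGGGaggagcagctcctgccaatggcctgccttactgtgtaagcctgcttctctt
intergenic, nearest TSS Gm20268, chr1:102651951-102652070, minus strand: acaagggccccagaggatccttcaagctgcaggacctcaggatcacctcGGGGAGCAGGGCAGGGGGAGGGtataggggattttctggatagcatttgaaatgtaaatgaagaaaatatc
intergenic, nearest TSS 4932441J04Rik, chr5:56270535-56270654, minus strand: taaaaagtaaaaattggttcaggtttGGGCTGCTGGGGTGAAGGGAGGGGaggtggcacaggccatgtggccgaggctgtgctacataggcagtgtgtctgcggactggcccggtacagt
intergenic, nearest TSS H2-M10.4, chr17:36485043-36485162, minus strand: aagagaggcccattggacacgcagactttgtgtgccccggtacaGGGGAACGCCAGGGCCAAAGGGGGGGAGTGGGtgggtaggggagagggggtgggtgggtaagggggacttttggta

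The stretch in an intron of Fbxw10, an F-box protein gene, was matched by an uninterrupted run of 17 guanines. The matches in the other stretches held separate G runs with short loops and were 22 to 32 bases long. The intergenic stretches lay 1496.3 kb from the TSS of Gm20268, 1447.4 kb from that of 4932441J04Rik and 22.9 kb from that of H2-M10.4, a gene of the MHC class I family. The peak in Fbxw10 had a -log10 p of 10.8 and 16 tags in replicate 1, and a -log10 p of 7.37 and 20 tags in replicate 2.

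The next 2 stretches are shown because they come from the highest-ranked sites with a G4 motif at a transcription start site (TSS). The centres of these peaks lay 0.047 kb and 0.027 kb upstream of it.
4930500G05Rik, chrX:12977753-12977872, plus strand: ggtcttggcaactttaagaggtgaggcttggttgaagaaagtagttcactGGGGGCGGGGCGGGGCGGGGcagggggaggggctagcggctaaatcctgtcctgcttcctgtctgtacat
Btbd35f26, chrX:31336140-31336259, plus strand: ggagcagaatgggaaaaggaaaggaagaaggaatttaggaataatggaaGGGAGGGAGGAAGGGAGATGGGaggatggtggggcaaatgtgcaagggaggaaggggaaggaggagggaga

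A dinucleotide repeat, at least 10 copies of TG in a row, was present at 476 sites (12.8%), 63 of which also held a G4 motif. Both stretches below come from sites among the 10 highest-ranked of all. Their capitals mark the TG run nearest to the peak summit, and a further long run near Gm31447 is left in lower case.
intergenic, nearest TSS Btbd35f26, chrX:31149039-31149158, plus strand: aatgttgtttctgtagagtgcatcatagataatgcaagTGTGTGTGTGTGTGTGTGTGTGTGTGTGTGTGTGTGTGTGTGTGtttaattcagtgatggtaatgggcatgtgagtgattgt
intergenic, nearest TSS Gm31447, chr12:68543339-68543458, plus strand: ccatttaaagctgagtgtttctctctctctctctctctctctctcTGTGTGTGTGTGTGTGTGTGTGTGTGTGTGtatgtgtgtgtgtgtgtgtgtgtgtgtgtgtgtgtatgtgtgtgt

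The telomeric sequence, at least 4 copies of TTAGGG in a row, was present at 2 sites (0.0536%). It was present at 110 of all TERRA KD replicate 1 peaks (0.0634%), at 1 site only in scramble KD (0.0103%) and at 1 constant G4 site (0.0022%). These counts are too small for a comparison.

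How the sites came out of the 4 lists was examined first. Starting from TERRA KD replicate 1, 102103 peaks (58.8%) were shared with replicate 2. Of those, 45495 were in all 4 lists and are called constant G4 sites below, 48505 were in scramble KD replicate 2 but not 1, 4366 were in scramble KD replicate 1 but not 2, and 3737 (3.66%) were in neither. The reverse selection, peaks of scramble KD replicate 1 that overlapped replicate 2 and no TERRA KD peak, gave 9707 sites, or 11.3% of 85829 shared scramble KD peaks. In these lists, which were of unequal depth, the replicated G4 peaks specific to scramble KD were more numerous than those specific to TERRA KD. The reverse selection was not repeated with lists of equal size, so this order is not read as an effect of the knockdown.

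The G4 libraries were of unequal depth, from 2961038 tags (scramble KD replicate 1) over 5759282 (TERRA KD replicate 1) and 13127555 (TERRA KD replicate 2) to 24588605 (scramble KD replicate 2). Scramble KD replicate 2 listed 389434 peaks over 15.2% of the genome, against 140119 peaks in replicate 1 and 173699 and 225024 in the TERRA KD lists. Each condition had 1 input library for both G4 lists, of 23359214 tags in the control cells and 19824848 after TERRA KD, so an effect of the input library and of the condition on these sites cannot be told apart. The number of sites moved with every library: it was 52242 without scramble KD replicate 2, 8103 without scramble KD replicate 1, 32819 without TERRA KD replicate 1 and 18778 without TERRA KD replicate 2. When every list was cut to its 140119 highest-ranked peaks, it was 8984. In bulk chromatin, fewer cells with a folded G4 and a weaker signal per cell cannot be told apart.

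The sites were short and weak peaks. In replicate 1 their median was 8 tags, a -log10 p of 3.88, a fold enrichment of 8.58 over background and a length of 547 bp, against 16 tags, 6.86, 10.68-fold and 754 bp at constant G4 sites. The peaks also found in scramble KD replicate 2 alone were close to them, with 10 tags, 3.93, 7.75-fold and 645 bp. In replicate 2 the sites had a median of 12 tags, a -log10 p of 3 and a fold of 5.8.

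A -log10 p of at least 5 was reached by 960 sites (25.7%) in replicate 1, 386 in replicate 2 and 134 in both. At the other end, 955 sites (25.6%) lay under 3 in replicate 1, where peaks were called from 2 upwards. The summits of the 2 replicates were close to each other, with a median gap of 46 bp, and 2941 sites (78.7%) had them within 100 bp, against 62.2% at constant G4 sites. Both sets were selected for overlap between the replicates and the sites were shorter, so this is not read as closer agreement.

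**Figure D1:**
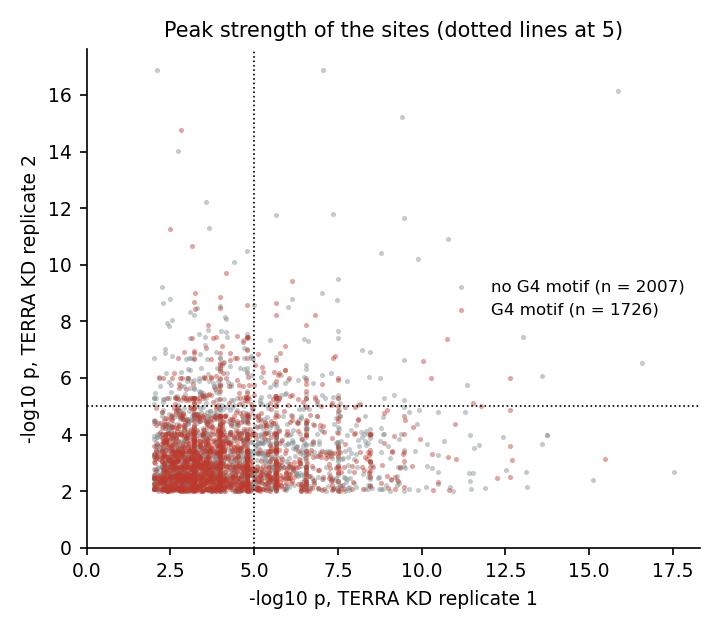
Each point is a site, plotted by its -log10 p in TERRA KD replicate 1 (x) and replicate 2 (y), grey without and red with a G4 motif, and dotted lines mark 5. Most points lie in the lower left corner, and 134 sites are at 5 or above on both axes.

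A scramble KD peak was often near. The median gap from a site to the nearest one was 1806.5 bp, 1300 sites (34.8%) had one within 1 kb, and 289 (7.73%) had none within 10 kb. At the edge of the rule, 17 sites had a scramble KD peak within 10 bp without touching it, with a median -log10 p of 3.86. The 7 peaks that were left out for a shared stretch of at most 10 bp had a median of 4.33. With scramble KD peaks kept at least 1 kb away, 2437 sites remained.

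The sequence of the sites was set against the constant G4 sites, the other peak sets and the genome. The median GC content around the summit was 49.7%, lower than the 56% of constant G4 sites and higher than the 41.3% of all 300 bp windows of the genome. The G4 motif was present at 46.2% of sites, 27.5% of constant G4 sites, 38.6% of the sites only in scramble KD, 30.4% of all peaks of TERRA KD replicate 1 and 5.03% of 8824592 genome windows. The sites thus combined a lower GC content with more G4 motifs than constant G4 sites, on 20 of 20 chromosomes for both measures (Y left out). The sites only in scramble KD, with a median GC content of 50.7%, differed from constant G4 sites in the same directions, so neither measure is particular to the sites after TERRA KD.

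The higher motif share depended on scramble KD replicate 2. Without that library 27.5% of the sites and 28% of the constant G4 sites held the motif, and without replicate 2 of every assay 30.3% and 30.4%. Without TERRA KD replicate 1 the shares were 28.3% and 25.7%, and without replicate 1 of every assay 29.9% and 21.1%. The motif share of the sites stayed above that of constant G4 sites without scramble KD replicate 1 (39.1% and 26.7%) and without TERRA KD replicate 2 (40.4% and 29.1%).

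Motifs sat under the summit. The central 100 bp held a G4 motif at 1108 sites (29.7%), against 9.94% and 9.7% for the 100 bp on either side. At constant G4 sites the central share was 15.6% and the flanking shares 7.9% and 7.84%. Peak strength did not order the motif share of the sites in 1 direction: it was 44.2% at a -log10 p of 2 to 3, 49.1% at 3 to 4 and 38.9% at 7 or above. At constant G4 sites it was lower at high strength, from 38.6% at 2 to 3 to 21.4% at 7 or above.

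GC content and motif were then read together over all replicated TERRA KD peaks. Of the peaks with a motif and a GC content of 40 to 45%, 226 of 992 (22.8%) had no scramble KD peak and so were sites. This share was 14.6% at 45 to 50%, 7.85% at 50 to 55% and 1.98% at 55 to 60%. Without a motif it was 4.99%, 6.03%, 4.38% and 1.02% over the same steps, so the share was higher with a motif at each of these 4 steps. At 60 to 65% it was lower with a motif, 0.615% against 0.909%. In the reverse selection, scramble KD peaks without a TERRA KD peak, the share was also higher with a motif, 29.3% against 13.3% at 40 to 45%. The lists themselves differed in GC content: the median over all peaks was 49.7% (scramble KD replicate 1), 53.3% (scramble KD replicate 2), 55.3% (TERRA KD replicate 1) and 53.7% (TERRA KD replicate 2). The part of these differences between lists in the sites was not tested.

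**Figure D2:**
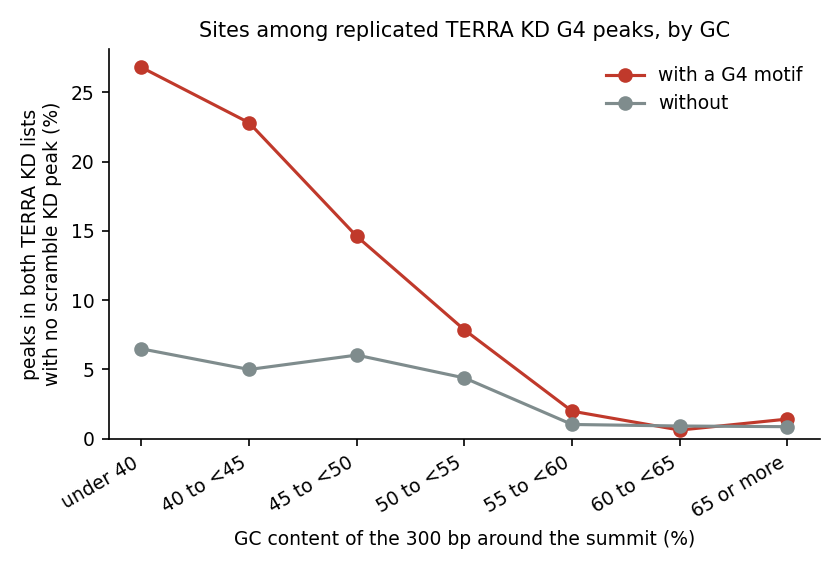
The y axis gives the share of G4 peaks in both TERRA KD lists that overlapped no scramble KD peak, in percent, by GC content of the 300 bp around the summit (x), with and without a G4 motif. With a motif the share goes from 26.8% under 40% GC to 0.615% at 60 to 65%, and without one from 6.48% to 0.909%.

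Other repeats differed too. At least 3 copies of GGGA in a row were found at 288 sites (7.71%), 271 of which also held the G4 motif, against 3.97% of constant G4 sites, 9.51% of the sites only in scramble KD and 0.46% of genome windows. TG repeats were less frequent than at constant G4 sites, 12.8% against 20.7%, but close to the 12.1% of the sites only in scramble KD, and 2.89% of genome windows held one. A further 1579 sites (42.3%) held none of the G4, TG and GGGA patterns. Repeat-masked bases made up 54.7% of the sites' windows, 42.4% of those of constant G4 sites and 51% of those of the sites only in scramble KD. Among the motif-bearing sites inside genes with the motif on 1 strand, 282 of 665 (42.4%) had the G runs on the non-template strand, and at constant G4 sites it was 47.2% of 6179.

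**Figure D3:**
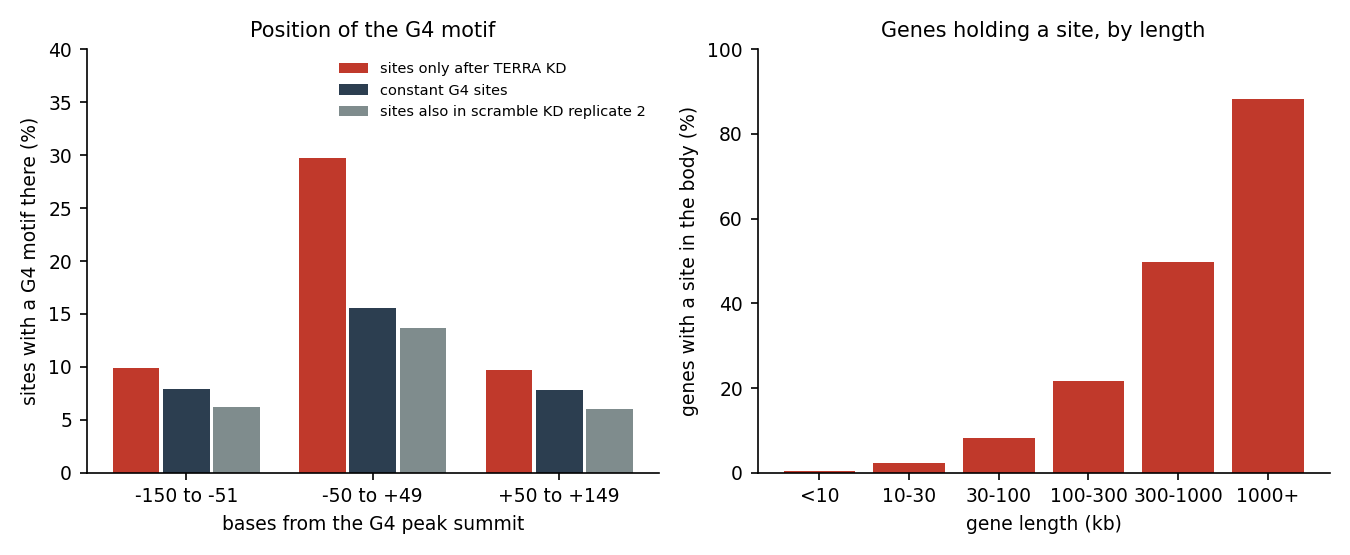
Left, the share of sites (%) with a G4 motif in each 100 bp of the 300 bp around the summit, for the sites and both kinds of comparison site. Right, the share of genes (%) with a site in the body by gene length in kb, which goes from 0.462% under 10 kb to 88.2% at 1000 kb or more.

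The sites lay mostly outside genes. By the centre of the peak, 2173 (58.2%) were intergenic, 1428 (38.3%) intronic, 54 (1.45%) in coding exons and 44 (1.18%) in promoters, from 1 kb upstream to 100 bp downstream of a TSS. Coding exons held 7.47% of constant G4 sites. The median distance to a TSS was 52745 bp, against 29608 bp at constant G4 sites, and 35.1% against 20.6% lay beyond 100 kb.

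Within 1 kb of a TSS lay 86 sites (2.3%, 95% Wilson interval 1.87 to 2.84), against 4.76% of constant G4 sites, 3.09% of those also in scramble KD replicate 2 only, 12.9% of the sites only in scramble KD and 7.41% of all peaks of the list. The share ran from 1.49% without TERRA KD replicate 1 to 5.61% without TERRA KD replicate 2, where constant G4 sites had 4.73% and 10.5%. It was 1.61% without replicate 1 of every assay and 5.03% without replicate 2, beside 2.99% and 10% of constant G4 sites. It was thus below that of constant G4 sites in each of these settings.

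Of the 26180 curated RefSeq genes, 92 (0.351%) had a site within 1 kb of the TSS. A scramble KD G4 peak lay elsewhere in the same 2 kb at 37 of these genes (40.2%), of both scramble replicates at 12, and 55 genes (59.8%) had none there. The share of all genes with a scramble KD G4 peak in this window was not computed, so these counts are not read as a trait of the 92 genes. Of the 86 sites, 38 overlapped ATAC peaks of all 4 libraries and 38 overlapped none. An ATRX peak was on 6 of them, in each case of a TERRA KD list only, and an H3K9me3 peak on 6. All G4 peaks of TERRA KD replicate 1, at any distance from a TSS, also met ATRX more often after the knockdown. Their ATRX share was 4.54% (replicate 1) and 3.03% (replicate 2), up from 0.581% and 0.641% in control cells. Neither count was made for TSS peaks of the other sets, so an ATRX gain particular to these 86 sites was not tested.

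The 10 highest-ranked sites within 1 kb of a TSS, ordered by the worse rank over both replicates, lay at genes of varied function, and by the centre of the peak some of them were in exons rather than promoters. At Olfr686, an olfactory receptor gene, the site (chr7:105204727-105205373) had 14 tags and a -log10 p of 8.43 in replicate 1, and 16 tags and 6.03 in replicate 2, with no ATAC peak. At Car5b, a mitochondrial carbonic anhydrase gene, the site (chrX:164028729-164029183) had 12 and 21 tags and lay on an ATAC peak of scramble KD replicate 1 alone, with a fold enrichment of 7.59. Neither promoter held a G4 motif in the window searched.

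Among these 10, the sites at Fibin, Slc2a12 and Dkk3 lay on ATAC peaks of all 4 libraries. The site of Fibin, a secreted protein gene, was in a coding exon and had 20 and 30 tags (chr2:110362096-110363276). Slc2a12 encodes a glucose transporter, and its site (chr10:22644902-22645603) in a coding exon had 15 and 14 tags. The ATAC peak there had a fold enrichment of 5.42 and 8.71 with scramble gapmers and 7.82 and 8.52 with TERRA gapmers, so the groups overlapped. Dkk3, a secreted protein of the Dickkopf family, had 11 and 16 tags at chr7:112158790-112159450, with a scramble KD G4 peak 138 bp away. Its ATAC fold was 4.28 and 5.44 with scramble gapmers and 4.29 and 4.95 with TERRA gapmers.

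Gm15511, Tmub1, 4930500G05Rik, Btbd35f26 and Eif2c5 completed the 10, with 8 to 17 tags in replicate 1 and 9 to 47 in replicate 2. The Gm15511 site was in a noncoding exon and the Tmub1 site in a coding exon. None of these 5 had an ATAC peak. The last 3 lie on the X chromosome and held a G4 motif.

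Gene bodies held sites in step with their length. A site lay in the body of 1351 genes (5.16%), whose median length was 106 kb, against 12.2 kb of genes without one. The share went from 0.462% of genes under 10 kb to 8.3% at 30 to 100 kb, 49.7% at 300 to 1000 kb and 88.2% of 51 genes of 1000 kb or more. Of 15 neuronal adhesion and scaffold genes with long bodies (median 1448.3 kb), 14 held at least 1 site, among them Cadm2 with 3.

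The most sites were found in Dmd, the dystrophin gene, with 5 over 2256.2 kb and 61 peaks of TERRA KD replicate 1 in all. Auts2, Sdk1, a cell adhesion gene, Slc25a21, a mitochondrial carrier gene, and Gna14, a G protein subunit gene, held 4 each, as did Trpm3, a cation channel gene added here because it tied with them. Of these 6 genes Gna14 had the highest density, with 4 sites among 8 peaks in 175 kb, or 2.28 per 100 kb, against 0.222 in Dmd. Its sites had 6 to 9 tags in replicate 1 and 11 to 18 in replicate 2, and 3 of the 4 held a G4 motif.

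Gene lists of ES cell identity and of G4 or telomere biology were also looked up. No site lay in the body or within 1 kb of the TSS of 16 core pluripotency genes, 11 G4-unwinding helicases, 13 genes of ATRX, DAXX and H3K9 methylation, 10 shelterin and telomerase genes or 12 lineage transcription factors, which are short genes with medians of 6.39 to 31.9 kb. With 0.462% of all genes under 10 kb, 2.24% at 10 to 30 kb and 8.3% at 30 to 100 kb holding a site, few or none would be found in lists of this size, and the absence is not a result about these genes. Among 11 genes with a classic promoter G4, Rb1 alone held 1, in its 130 kb body. An ATAC peak lay within 1 kb of the TSS of 7 or 8 of 8 ES cell markers in each library and of 4 or 5 of 8 feeder fibroblast markers. The share of all genes with such a peak was not computed, so nothing about feeder cells is read from these counts. The part of feeder cells in the sites was not tested.

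The highest-ranked site was in an intron of Lrp1, an endocytic receptor gene (chr10:127553187-127555329), with 57 tags and a -log10 p of 15.9 in replicate 1 and 259 tags and 16.1 in replicate 2. It was 2143 bp long, the nearest scramble KD peak was 1.45 kb away, and it held no G4 motif. Sites in introns of Erg, an ETS transcription factor gene, C2cd5 and Stox1 were also among the 10 highest-ranked, with 11 to 16 tags in replicate 1 and 21 to 27 in replicate 2. The others of the 10 were the Fbxw10 site and intergenic ones nearest to Btbd35f26, Fermt1, Gm31447, Vmn2r120 and Tshz1, of which the last held a G4 motif and a TG repeat.

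Of these 10, 8 had no peak of any other assay. The exceptions were the site 188 kb from Btbd35f26, open in all 4 ATAC libraries with an H3K9me3 peak in 1 scramble KD library, and the site 128 kb from Fermt1. The latter lay in H3K9me3 in all 4 libraries, with a fold of 28.6 and 10.4 with scramble gapmers and 23.6 and 13.8 with TERRA gapmers, so the groups overlapped.

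The sites were spread over the genome. They were in 1919 of 2737 stretches of 1 Mb, and no stretch held more than 8, a number reached at 42 to 43 Mb of chromosome 4. Per Mb, chromosome 19 had the most (1.89) and chromosomes 8 and 6 the fewest of the autosomes (1 and 1.07). Set against constant G4 sites, the X chromosome had 18.6 sites per 100 and chromosome 13 had 14.1, whereas chromosomes 6 and 8 had 4.47 and 3.65. Per Mb the X chromosome had 1.41 sites, within the range of the autosomes. It held 1238 constant G4 sites, whereas chromosomes 6 and 8 held 3491 and 3453, so the ratio is not read as an enrichment on X. Chromosomes 6 and 8 each held 8.35 to 17.5% of the ATRX peaks of a list, more than any other chromosome in each list, and this was not tested as a source of the difference.

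**Figure D4:**
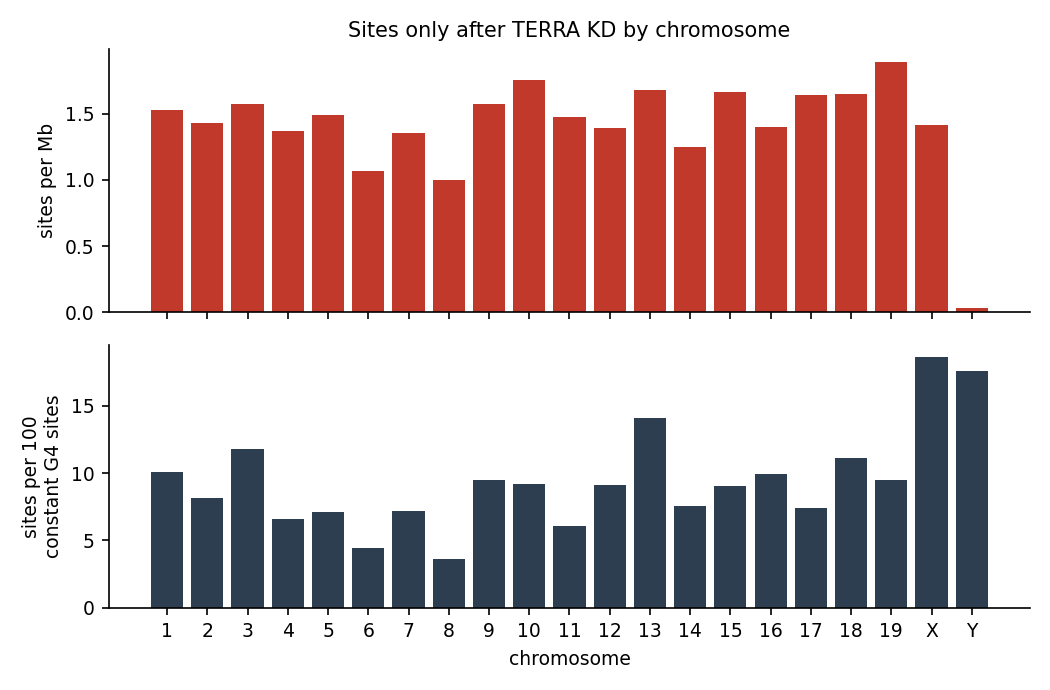
Bars give the sites per Mb (top) and per 100 constant G4 sites (bottom) for each chromosome (x). Chromosomes 6 and 8 are low in both panels, at 1.07 and 1 per Mb, and X is high in the lower one only, at 18.6, with 1.41 per Mb.

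Open chromatin was then examined at the sites. ATAC peaks overlapped 203 sites (5.43%) in scramble KD replicate 1 and 267 (7.14%) in replicate 2, against 245 (6.56%) and 285 (7.63%) in TERRA KD, while all peaks of TERRA KD replicate 1 had 12.8%, 15.9%, 15.4% and 17.1% in the same order. The sites were therefore less often open than the list they came from in every library. The scramble KD and TERRA KD values overlapped, with 6.29% ± 1.21 and 7.09% ± 0.757 (SD, n = 2), a difference of 0.803 points (two-sided exact permutation test, p = 0.667, smallest possible 0.333). It was -0.117 points without scramble KD replicate 1. Here, as above and below, leaving out a library, a stricter p threshold or a larger overlap was applied to the G4 lists too. The sites were selected anew in each of these settings, so such values are not for the same 3737 sites.

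Compared with constant G4 sites, the share of open sites was lower in 4 of 4 libraries, with a mean difference of -4.98 percentage points and a range of -5.87 to -3.57 (exact sign-flip test, p = 0.125, the smallest possible). Against the peaks of like strength found in scramble KD replicate 2 but not 1, the mean difference was -0.685 points, from -1.38 to 0.00592 (exact sign-flip test, p = 0.25). The share was lower than at constant G4 sites on 19 of 20 chromosomes.

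Constant G4 sites were longer, which raises the chance of an overlap. With 300 bp around the summit in place of the peak the mean ATAC difference between them was -2.66 points, and with at least 50% of the peak covered it was -0.537 (exact sign-flip test, p = 0.125 in both, the smallest possible). With the sites selected anew without TERRA KD replicate 1 or 2 it was -7.91 and -8.89. At like strength the mean share over the 4 libraries was also lower at the sites. It was 8.09% against 10.2% at a -log10 p of 2 to 3 and 4.69% against 9.83% at 3 to 4. At 4 to 5 it was 6.86% against 10.2%, at 5 to 7 7.32% against 10.6%, and at 7 or above 8.13% against 13.1%. The ranges over libraries overlapped at 2 to 3, 4 to 5 and 5 to 7. Length was not matched by strength, with medians of 491.5 against 679 bp at 3 to 4 and 522 against 826 bp at 7 or above.

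In all, 3372 sites (90.2%) had no ATAC peak in any library, 155 (4.15%) had one in all 4, 15 in both TERRA KD libraries only and 7 in both scramble KD libraries only. Over all peaks of the list 79.2% had none and 10.7% had one in all 4, and at constant G4 sites 82% and 6.69%. The patterns of TERRA KD only and scramble KD only made up 0.401% and 0.187% of the sites. They made up 0.735% and 0.21% of the list and 0.899% and 0.231% of constant G4 sites. On chromosomes 1 to 19, X and Y, 154 were open in all 4, of which 38 lay within 1 kb of a TSS, 122 were intronic or intergenic and 34 held a G4 motif. Motif-bearing sites were open less often than the others, 6.26% against 12.8% in at least 1 library. Neither this split nor the make-up of the open sites was computed for the other peak sets, so neither is read as particular to the sites.

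ATRX was sparse on the sites. Its peaks overlapped 17 sites (0.455%) in scramble KD replicate 1 and 17 (0.455%) in replicate 2, and 95 (2.54%) and 27 (0.723%) in TERRA KD, beside 0.581%, 0.641%, 4.54% and 3.03% of all peaks of the list. Both TERRA KD values were above both scramble KD values, with 1.63% ± 1.29 against 0.455% ± 0 (SD, n = 2) and a difference of 1.18 points (two-sided exact permutation test, p = 0.333, the smallest possible). The groups were no longer separate in some settings that selected the sites anew. With a -log10 p of at least 5 in every list the difference was 0.269 points (exact permutation test, p = 1). Without scramble KD replicate 1 it was 1.19 points, over 8103 sites. At the 3737 sites the difference was 2.09 points in replicate 1 and 0.268 in replicate 2. With the sites selected anew, the mean difference was 0.562 points without TERRA KD replicate 1 (32819 sites). It was 2.18 without TERRA KD replicate 2 (18778 sites) and 2.63 without scramble KD replicate 2 (52242 sites).

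At constant G4 sites the ATRX share went from 0.644% ± 0.0435 to 4.56% ± 0.642 (SD, n = 2), a difference of 3.91 points. The change at the sites minus that at constant G4 sites was -2.31 points in replicate 1 and -3.16 in replicate 2 (mean -2.73, two-sided exact permutation test, p = 0.333, the smallest possible). The mean was -1.09 without scramble KD replicate 2, -0.724 without replicate 2 of every assay, -0.844 with a -log10 p of at least 5 in every list and -0.957 with at least 50% of the peak covered. Over the 4 libraries the ATRX share of the sites minus that of constant G4 sites was -1.56 points on average (range -3.38 to -0.158, lower in 4 of 4, exact sign-flip test, p = 0.125, the smallest possible). It was -0.993 over 300 bp around the summit and -0.528 with at least 50% of the peak covered. Against the peaks of like strength found in scramble KD replicate 2 but not 1 it was -0.79 points, from -1.93 to 0.00753 (exact sign-flip test, p = 0.25). The change between conditions was 2.72 points at those peaks and 2.27 at the sites only in scramble KD, also below that of constant G4 sites. The whole ATRX lists moved in the same direction, from 7321 and 13652 peaks in control cells to 41384 and 21718.

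Few sites had ATRX peaks in both libraries of a condition. Of the 143 sites (3.83%) with an ATRX peak in any library, 3 had one in both TERRA KD libraries, and none had one in both scramble KD libraries (0 of 3737, which allows a share of up to 0.0803%). ATRX in any library was on 7.59% of all peaks of the list and 9.1% of constant G4 sites. For both TERRA KD and both scramble KD libraries the shares were 0.667% and 0.0921% of the list, and 0.826% and 0.0528% of constant G4 sites. ATRX in both TERRA KD libraries was thus rarer at the sites (0.0803%) than in those sets. The limit on the count of 0 lies below the share of the list and above that of constant G4 sites, so no difference is read from it. One site (0.0268%) had ATRX in both TERRA KD libraries and in neither scramble KD library. This pattern was found at 0.493% of all peaks of the list and 0.688% of constant G4 sites. The site was intergenic, 14.1 kb from Olfr342 (chr2:36512962-36513666). Its G4 peak had 8 tags and a -log10 p of 2.07 in replicate 1 and 20 tags and 3.59 in replicate 2. The ATRX fold enrichment there was 31.7 in TERRA KD replicate 1 and 5.68 in replicate 2, and H3K9me3 was present in both TERRA KD libraries and in 1 scramble KD library.

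H3K9me3 peaks overlapped 191 (5.11%) and 124 (3.32%) sites with scramble gapmers and 213 (5.7%) and 154 (4.12%) with TERRA gapmers, beside 6.38%, 4.55%, 7% and 5.74% of all peaks of the list. The H3K9me3 lists were unlike between replicate numbers. Median peak length was 2404 bp (scramble KD) and 3119.5 bp (TERRA KD) in replicate 1, and 491 and 515 bp in replicate 2. The part of this in the spread was not tested. The scramble KD and TERRA KD shares of the sites overlapped, with 4.21% ± 1.27 and 4.91% ± 1.12 (SD, n = 2), a difference of 0.696 points (two-sided exact permutation test, p = 0.667, smallest possible 0.333). The difference was -0.268 points without TERRA KD replicate 1 and -0.36 without scramble KD replicate 2. The sites were covered less often than constant G4 sites in 4 of 4 libraries, with a mean difference of -1.55 points and a range of -1.9 to -1.04 (exact sign-flip test, p = 0.125, the smallest possible). This mean turned to 0.629 without scramble KD replicate 2 and 1.06 without replicate 2 of every assay. At like strength there was no steady order either: at a -log10 p of 2 to 3 the mean share was 5.05% at the sites and 3.72% at constant G4 sites, at 3 to 4 it was 3.98% and 4.03%, and at 7 or above 6.04% and 7.83%.

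H3K9me3 in all 4 libraries was found at 59 sites (1.58%), 44 of them intergenic and 2 with a G4 motif, beside 2.08% of all peaks of the list and 2.07% of constant G4 sites. Sites with a motif had H3K9me3 in any library less often than the others, 4.35% against 12.3%, and ATRX as well, 2.26% against 5.13%. The split by motif was not made for the other peak sets, so it is not read as particular to the sites. Counting any library, ATRX and H3K9me3 met at 59 sites (1.58%). This was the case at 2.75% of all peaks of the list, 3.22% of constant G4 sites and 1.51% of the sites only in scramble KD. Of the 94 sites with ATRX in TERRA KD replicate 1 on chromosomes 1 to 19, X and Y, 48 also had H3K9me3 in that replicate. That last share was not computed for all peaks of the list. The ATRX and H3K9me3 lists were also called against inputs of the same tag total. It was 3374834 in TERRA KD replicate 1 and 28622103 in TERRA KD replicate 2. The part of the input in the shared ATRX and H3K9me3 peaks, including those near Olfr342, was not tested.

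**Figure D5:**
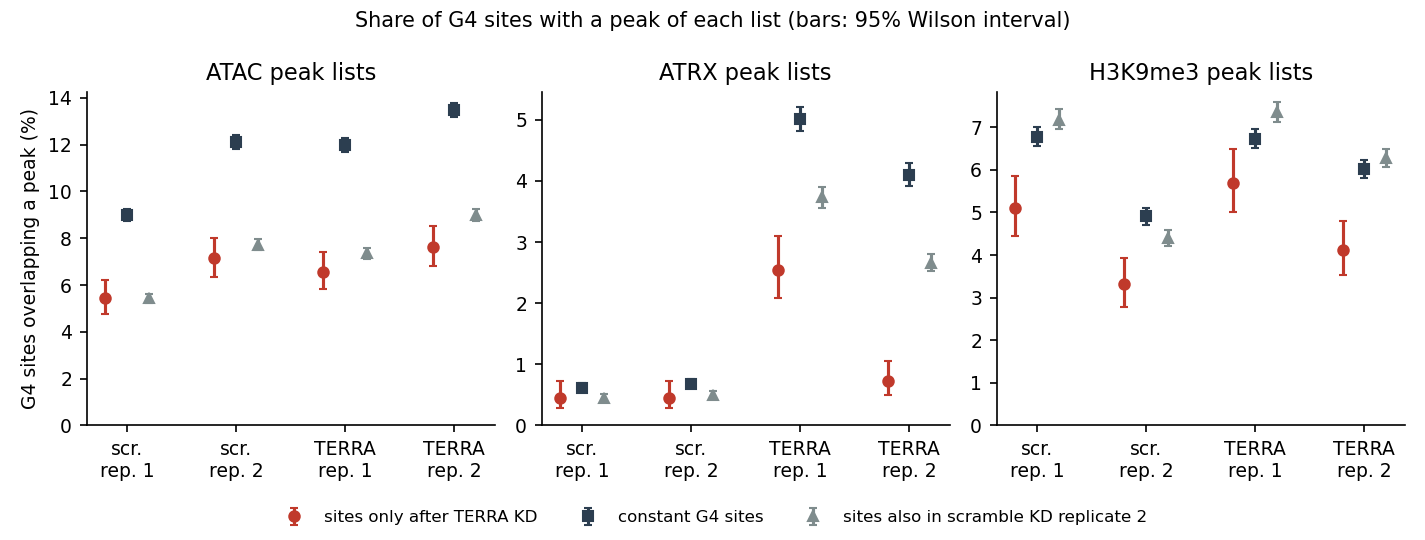
The y axes give the share of G4 sites (%) overlapping a peak of each ATAC, ATRX or H3K9me3 list (x, scramble KD and TERRA KD replicates), for the sites only after TERRA KD, constant G4 sites and sites also in scramble KD replicate 2 only, and bars are 95% Wilson intervals. The sites lie below constant G4 sites in every list, and the ATRX shares of the sites are 2.54% and 0.723% in TERRA KD against 0.455% in both scramble KD lists.

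Over all 12 lists of the other assays, 3027 sites (81%) overlapped no peak at all, against 68.4% of all peaks of the list, 70.4% of constant G4 sites, 74.8% of those also in scramble KD replicate 2 only and 65% of the sites only in scramble KD. At 44 sites (1.18%) ATAC and H3K9me3 peaks met, and at 27 (0.723%) ATAC and ATRX peaks did, counting any library. Over all peaks of the list these shares were 3% and 2.97%, and at constant G4 sites 3.89% and 3.33%. A peak that is missing from a list is a signal that was not detectable at that depth.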

How the data were processed

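G4, ATRX and H3K9me3 ChIP-seq and ATAC-seq were made from ES cells 12 h after scramble or TERRA LNA gapmer transfection, with 2 replicates per condition, so that 16 peak lists were used. The submitters' processing notes name Trim Galore 0.5.0, Bowtie2 2.3.4.1, SAMtools 1.9 and deepTools 3.1.1, and the build mm10. Per the file headers, peaks were called at a p of 0.01 in each library, with MACS 1.4.3 (ATRX, H3K9me3) and 1.4.2 (G4) against input and with MACS 2.2.7.1 (ATAC) without input.

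The deposited ChIP lists give the count of tags in each peak, a score, which is the -log10 of the p multiplied by 10 and was divided by 10 here, and the fold enrichment as a ratio to background. The deposited ATAC lists give a pileup signal at the summit, a -log10 of the p and a fold enrichment. These values carry no scaling for depth, so peaks were ranked within their own list and compared by overlap of at least 1 bp. Coverage was not used here.

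TSS and features were those of 26180 curated RefSeq genes of GRCm38.p6, whose soft-masked sequence was used for motifs, and the centre of a site decided its feature. Shares of sites per library were compared between conditions by exact permutation (two-sided, 4 libraries, smallest p 0.333) and between kinds of site with an exact sign-flip test over the 4 libraries, smallest p 0.125, so no comparison could pass a threshold of 0.05. The library is the replicate, and p-values measure the spread between these libraries, which the labels do not tie to separate cultures. Wilson intervals of 95% and the limit from 3 counts cover counting error only. The overlap, permutation and motif functions were tested on simulated data. Python 3.11.15, numpy 2.4.6, pandas 2.3.3, scipy 1.17.1 and matplotlib 3.10.9 were used.

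The sites, gene lists and tests were chosen with earlier results of these data known. Named were at most 10 genes with a site within 1 kb of the TSS and at most 10 sites, ordered by the worse rank over both TERRA KD lists, at most 5 genes with the most sites in the body, at most 10 sites with ATRX in both TERRA KD lists only, and list members with a site. Printed sequences added the highest-ranked motif sites outside exons and chromosome 18, chosen after their values were seen. A few qualifying items are left unreported here. Alternatives changed the p threshold, the overlap, the chromosomes, the starting list, the list size, the distance to scramble KD peaks, the windows, the loop length and the libraries used. All of these but the windows and the loop length were applied to the G4 lists, so the sites were selected anew.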

Additional observations from a re-analysis of the deposited data

How the results depend on the processing

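With 2 libraries per condition no test could pass a threshold of 0.05, and the direction of each comparison was followed. The number of sites, 3737, was 1485 with a -log10 p of at least 5 in every list, 8984 with equal numbers of top-ranked peaks and 2437 with no scramble KD peak within 1 kb, and it ran from 8103 to 91297 when a library or a replicate number was left out. In the same order, the share with a G4 motif, 46.2%, was 32.8%, 37.3% and 48.3%, and it was 55.2% with loops of up to 12 bases, 50% over the whole peak and 27.5% to 40.4% with libraries left out. The share within 1 kb of a TSS, 2.3%, was 0.943% and 1.6% in the first 2 of these settings, 4.96% within 3 kb and 1.49% to 5.61% with libraries left out. The cause of these moves was not tested.

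The ATAC difference between conditions (0.803 points) turned to -0.117 without scramble KD replicate 1 and reached 2.67, and that of H3K9me3 (0.696) ran from -0.36 to 1.68. The H3K9me3 share of sites minus constant G4 sites (-1.55) ran from -2.69 to 1.06, and the difference of H3K9me3 changes (0.162), whose alternatives were added after seeing the data, from -1.03 to 0.264. The ATRX difference between conditions (1.18) was 0.269 with a -log10 p of at least 5 in every list and 0.484 to 3.62 with libraries left out, and the ATAC and ATRX shares minus constant G4 sites stayed below 0, from -8.89 to -3.27 and from -1.46 to -0.548. With at least 50% of the peak covered, the ATAC difference from constant G4 sites was -0.537. Of the 21 named sites, 14 remained under the stricter p threshold and 13 with no scramble KD peak within 1 kb.

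With a replicate block (paired differences within replicate number, exact sign-flip test on 2 pairs, smallest p 0.5) the differences were unchanged at 0.803 for ATAC, 1.18 for ATRX and 0.696 for H3K9me3, each with p = 0.5. Deviations of peak numbers per 1 Mb from the condition mean correlated between same-numbered libraries at r = 0.52 for G4, 0.11 for ATAC, 0.054 for ATRX and 0.27 for H3K9me3, so the pairing is not established for all assays.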
